A study of Mus musculus with 8 samples.

Results

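The thick ascending limb of the loop of Henle reabsorbs salt without water, and 6 genes of its transport machinery and secreted products are described here in kidneys of mice lacking CTRP1. They are Slc12a1, Kcnj1, Bsnd, Umod, Egf and Ptger3, taken by symbol from the deposited table of 23386 genes. All 6 were found and all 6 passed the filter on low values, which kept 14022 genes. The mice were 49 weeks old and came in 2 groups of 4, wild type (WT, +/+) and Ctrp1-/- (KO), and each animal gave 1 library of polyadenylated RNA from a whole left kidney. In the KO allele 679 bases of C1qtnf1, the gene of CTRP1, were deleted in every cell of the animal, comprising coding sequence of exon 4 and 162 bases of the 3' UTR. The allele was made in 129S5/Sv embryonic stem cells and crossed to C57BL/6J for more than 6 generations, and WT and KO animals were littermates from heterozygous parents. None of the 6 genes lies on chromosome 11, where C1qtnf1 and any stem cell DNA kept around it are found.

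In this segment sodium, potassium and chloride enter the cell together across the luminal membrane through NKCC2, the cotransporter encoded by Slc12a1 and blocked by loop diuretics. Potassium returns to the lumen through ROMK, encoded by Kcnj1, and chloride leaves on the blood side through channels that need the subunit barttin, encoded by Bsnd. Loss of any of these proteins in humans causes Bartter syndrome, a salt-wasting disorder. The same cells secrete uromodulin, the most abundant protein of normal urine, and they are a main source of the epidermal growth factor (EGF) precursor. Prostaglandin E2 restrains their salt transport through the receptor EP3, encoded by Ptger3.

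The libraries held 15027400 to 19256378 counted reads. The mean of C1qtnf1, in scaled FPKM, was 3.63 ± 0.877 for WT and 0.325 ± 0.174 for KO (SD, n = 4), and the groups did not overlap. Its log2 fold change was -2.32 (SE 0.18, limma adjusted p = 0.000768). The labels do not give the sex of each animal. Xist, expressed in females, was at most 0.0169 scaled FPKM and Ddx3y, a gene of the Y chromosome, was 9.48 to 13.2 in all 8 libraries. A pair of libraries stood apart in some markers of other kinds. WT replicate 3 had Havcr1, a marker of injured proximal tubule, at 4.73, where the other libraries held 0.482 to 1.89. Other genes listed as tubule injury markers were divided. Spp1 and Vcam1 were highest in WT replicate 3 (555 and 12.5). Lcn2 and Krt18 were highest in KO replicate 3 (4.07 and 25.2), with WT replicate 3 next (3.40 and 18.9). KO replicate 3 had Aqp2, the water channel of principal cells, at 446 (other libraries 108 to 189) and Slc14a2, a urea transporter of thin limb and inner medulla, at 26.4 (other libraries 2.95 to 14.1). Scaled FPKM are the authors' fragments per kilobase of gene length, adjusted for sequencing depth, divided by 1 factor for each library. Throughout, a log2 fold change compares KO with WT on the log2(scaled FPKM + 0.5) scale, which understates changes of low genes. A gene was called at an adjusted p under 0.05. Of the 14022 genes tested, 7 were called, or 0.0499%, and 0 of the 6 thick limb genes were among them. An unadjusted p under 0.05 was reached by 2165 genes (15.4%) and by 0 of the 6. WT and KO values did not overlap for 8.62% of all genes and for 0 of the 6.

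RefSeq promoter windows (GRCm38.p6, 250 bases before to 50 after a start) were found for 5 of the 6 genes. The stretches below, 30 bases each, are shown because Slc12a1, Umod and Ptger3 varied together across the libraries, as described further on, and can so be set beside Kcnj1 and Egf. Capitals mark the letters CCAAT, or GGGCGG, the letters of a GC box.
Slc12a1, chr2:125152513-125152542, plus strand, bases -87 to -58 from the start: gaaagtttttaaCCAATgagcagaagccta
Umod, chr7:119479369-119479398, minus strand, bases -136 to -107: acaggtgtgaccCCAATgtcaatcattttg
Kcnj1, chr9:32393838-32393867, plus strand, bases -147 to -118: ccatgctggcatCCAATccatgtctgctgc
Ptger3, chr3:157566846-157566875, plus strand, bases -30 to -1: gcctcgcgcggcgtcGGGCGGcgcctgtcc
Egf, chr3:129755323-129755352, minus strand, bases -30 to -1, no capitals: agctttaaaaaggagagcagagtctctctg

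Searched on both strands, CCAAT stood in 3 of the 6 windows of these genes and in 37.4% of all 32851 windows, and GGGCGG in 2 of the 6 and in 35.7%. TATAAA, the letters of a TATA box (13.6% of all windows), and AAGGTCA, a site of ESRR receptors (4.72%), stood in 0 of the 6 windows. No letter pattern of this search was common to Slc12a1, Umod and Ptger3. The Kcnj1 window belongs to an internal start of that gene, and Egf has a further window at an internal start that held none of these patterns. The Slc12a1 window also belongs to a start inside the gene, whose first base is given below as 125152505. The Slc12a1 stretch shown therefore lies within the annotated gene. A match of letters is a description of the window and not a site.

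Slc12a1 (ENSMUSG00000027202; chromosome 2, 125152505 to 125230002, plus strand, mm10), the gene of NKCC2, was 1.26-fold higher in KO on average, a difference within the spread of the animals. It measured 173, 313, 168 and 233 scaled FPKM in WT replicates 1 to 4. In KO replicates 1 to 4 it measured 275, 286, 335 and 226. WT replicates 1 and 3 stood below every KO library, but WT replicate 2 stood above 3 of the 4 KO libraries. The means were 222 ± 67.5 in WT and 280 ± 44.6 in KO (SD, n = 4). The log2 fold change of Slc12a1 was 0.37 (SE 0.19, 95% interval -0.06 to 0.80, limma adjusted p = 0.377), so changes from a 0.960-fold to a 1.74-fold level were within the interval. With 12765 to 27521 reads per library, counting error at the fewest reads was 0.885%, against a coefficient of variation between animals of 30.4% in WT and 15.9% in KO. An antisense gene, Gm14002, lies within the span of Slc12a1 and held 3 to 11 reads per library. In RNA of a whole organ, fewer cells of a type and less RNA per cell cannot be told apart, and this holds for every value given here.

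Kcnj1 (ENSMUSG00000041248; chromosome 9, 32372418 to 32399192, plus strand), the gene of the potassium channel ROMK, which is also present in the distal tubule and collecting duct, was the steadiest of the 6 across animals. Its scaled FPKM were 62.1, 68.5, 59.9 and 57.4 in the WT libraries and 70.6, 61.9, 72.4 and 64.2 in the KO libraries. The groups overlapped, with WT replicate 2 above KO replicates 2 and 4. The coefficient of variation was 7.72% in WT and 7.51% in KO. The means of 62.0 ± 4.78 and 67.3 ± 5.06 (SD, n = 4) gave a log2 fold change of 0.12 (SE 0.07, 95% interval -0.04 to 0.28, limma adjusted p = 0.445). A rise of Kcnj1 beyond 1.21-fold was therefore outside the interval.

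Bsnd (ENSMUSG00000025418; chromosome 4, 106483456 to 106492283, minus strand) encodes barttin, the subunit that carries chloride channels to the membrane in the thin and thick limbs, the distal tubule and intercalated cells. Its values were 20.2, 19.8, 20.4 and 15.7 scaled FPKM in WT and 18.6, 18.8, 26.4 and 14.8 in KO. KO libraries 3 and 4 held the highest and the lowest value of all 8, so the KO group enclosed the WT group. The means were 19.0 ± 2.21 and 19.7 ± 4.86 (SD, n = 4), the smallest difference of the 6 genes, with a log2 fold change of 0.024 (SE 0.15, 95% interval -0.32 to 0.37, limma adjusted p = 0.959). The sign of this small difference turned to -0.13 without KO replicate 3 and to -0.06 without WT replicate 4.

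Umod (ENSMUSG00000030963; chromosome 7, 119462866 to 119479255, minus strand), the gene of uromodulin, was the most abundant of the 6 and stood at place 23 among all tested genes by mean scaled FPKM. It measured 1191, 1670, 1116 and 1332 in WT and 1482, 1526, 1665 and 1339 in KO. WT replicates 1, 3 and 4 lay below all KO libraries, and WT replicate 2 was the highest of the 8. The means were 1327 ± 246 and 1503 ± 134 (SD, n = 4), a 1.13-fold difference, with a log2 fold change of 0.19 (SE 0.12, 95% interval -0.08 to 0.47, limma adjusted p = 0.467). Umod alone took 0.278% to 0.420% of the counted reads of a library, and the 6 genes together took 0.550% to 0.798%.

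Egf (ENSMUSG00000028017; chromosome 3, 129677575 to 129755322, minus strand), whose membrane-bound precursor is cut to release EGF into urine, followed in abundance. Its scaled FPKM were 315, 416, 343 and 352 in WT and 436, 367, 373 and 361 in KO. KO replicate 1 was the highest and WT replicate 2 came next, above the other 3 KO libraries. The means of 356 ± 42.9 and 384 ± 35.1 (SD, n = 4) gave a log2 fold change of 0.11 (SE 0.09, 95% interval -0.09 to 0.32, limma adjusted p = 0.578). Of 8 tested genes for EGF family ligands, receptors and the magnesium channel gene Trpm6, which EGF stimulates, 0 were called, and their median log2 fold change was 0.06. Erbb4, a receptor of neuregulins and some EGF family ligands, measured 1.28 ± 0.204 and 1.83 ± 0.0752, with no overlap of the groups and a log2 fold change of 0.40 (SE 0.10, limma adjusted p = 0.170). The ligand gene Btc (0.12, SE 0.08, limma adjusted p = 0.524) and Trpm6 (-0.27, SE 0.20, limma adjusted p = 0.537) came next by p. The ligand genes Areg, Ereg and Epgn were too low to be tested.

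Ptger3 (ENSMUSG00000040016; chromosome 3, 157566892 to 157644758, plus strand), the gene of the prostaglandin receptor EP3, was the lowest of the 6 and had the smallest unadjusted p, 0.0579 by limma. It measured 14.3, 18.3, 12.0 and 16.5 scaled FPKM in WT and 18.2, 21.4, 23.5 and 14.8 in KO. KO replicates 2 and 3 stood above every WT library, whereas KO replicates 1 and 4 stood within the WT range. The means of 15.3 ± 2.75 and 19.5 ± 3.80 (SD, n = 4) differed 1.27-fold, with a log2 fold change of 0.34 (SE 0.16, 95% interval -0.01 to 0.69, limma adjusted p = 0.339). Ptger3 held 403 to 895 reads per library, so counting error at the fewest reads was 4.98%, below the 18.0% and 19.5% between animals. Of 10 tested genes of hormone and prostaglandin signalling in this segment 0 were called, with a median of -0.07. The parathyroid hormone receptor gene Pth1r (-0.15, SE 0.08, limma adjusted p = 0.366), Gnas, which encodes a stimulatory G protein subunit and was counted at only 89 to 166 reads per library (-0.18, SE 0.10, limma adjusted p = 0.411), and the cyclooxygenase gene Ptgs1 (0.14, SE 0.12, limma adjusted p = 0.599) had the smallest p. The list included Avpr2, Calcr, Nos1, Ptger2 and Ptgs2, which stayed under the filter and were not tested. The labels and headers do not say how the authors counted reads at overlapping genes, and the low counts of Gnas and of Avpr2 (1 to 6 reads) are uncertain.

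**Figure D1:**
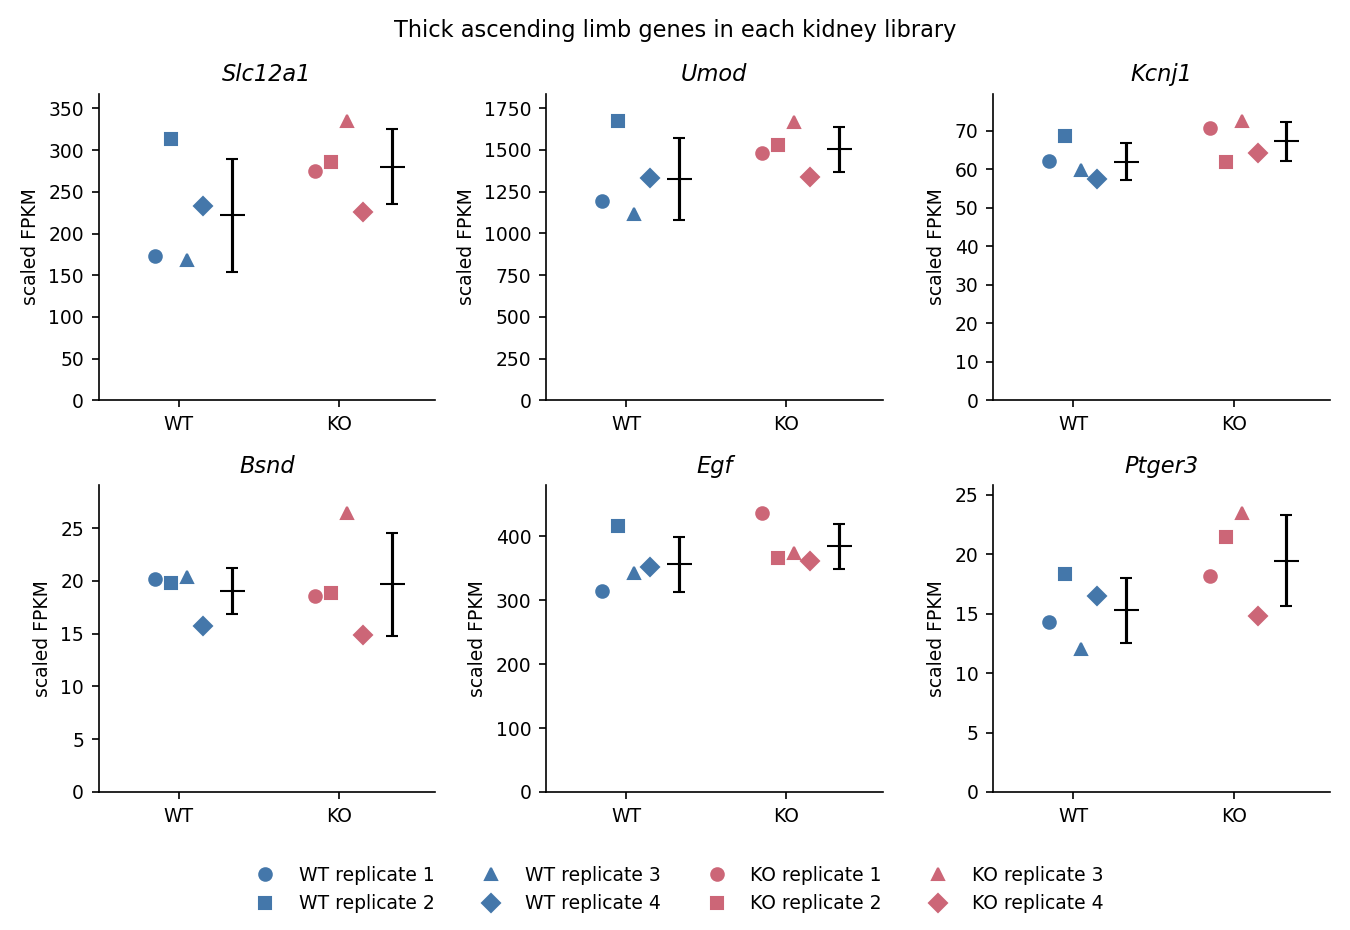
Scaled FPKM (vertical axes, linear, from 0) of the 6 thick ascending limb genes in each WT and KO kidney library; each point is a library, with symbols for replicates, and black bars give the mean ± SD (n = 4). The groups overlapped in every panel, and WT replicates 1 and 3 were the lowest 2 libraries for Slc12a1, Umod and Ptger3.

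All 6 genes had a positive log2 fold change, with a median of 0.16 against -0.0012 for all 14022 genes, and 49.6% of all genes were above 0. Genes that vary together do not give separate evidence of a direction. Without WT replicate 3 and KO replicate 3, a choice made after seeing the data, the values were 0.16 for Slc12a1, 0.06 for Umod, 0.07 for Kcnj1, -0.09 for Bsnd, 0.11 for Egf and 0.13 for Ptger3. These are the libraries named above for Havcr1 and for Aqp2 and Slc14a2, and both were also high for Lcn2 and Krt18. The part of these marker differences in the values was not tested. Leaving out single libraries, Slc12a1 ran from 0.25 without WT replicate 3 to 0.55 without WT replicate 2, and Umod from 0.12 without WT replicate 3 to 0.31 without WT replicate 2.

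By level per length, Umod stood above Egf, Slc12a1, Kcnj1, Bsnd and Ptger3 in that order of mean scaled FPKM. Umod was 3.26 to 4.46 times Egf and Slc12a1 was 2.79 to 4.62 times Kcnj1 within a library, with no overlap of the levels across libraries. Egf exceeded Slc12a1 in each library, by 1.12 to 2.04 times, although their ranges over libraries overlapped. Bsnd and Ptger3 did not separate, with a ratio of 0.880 to 1.70. These orders rest on the gene lengths that the authors used, which were 2097 bases for Ptger3 and 4757 for Egf, where all GENCODE vM21 exons together span 5688 and 11275 bases.

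Across the 8 libraries, Slc12a1, Umod and Ptger3 rose and fell together, and no pair with Bsnd passed the threshold. Pearson's r between Slc12a1 and Umod was 0.99 (exact permutation p = 9.92e-05, adjusted p = 0.00149 over 15 pairs) and Spearman's rho was 0.95 (p = 0.00114, adjusted p = 0.00856). Slc12a1 and Ptger3 gave an r of 0.92 (exact permutation p = 0.00144, adjusted p = 0.0108) and a rho of 0.98 (p = 0.000397, adjusted p = 0.00595). Umod and Ptger3 gave an r of 0.91 (exact permutation p = 0.00228, adjusted p = 0.0114) and a rho of 0.90 (p = 0.00456, adjusted p = 0.0228). These 3 pairs of 15 passed the threshold by either measure. Their r stood at 0.99, 0.89 and 0.88 after the mean of each genotype was removed, and at 0.98, 0.87 and 0.95 without the 2 libraries farthest from the median. Without WT replicate 3, the library lowest in all 3 genes, only Slc12a1 with Umod passed, and the pairs with Ptger3 had an r of 0.88 (exact permutation adjusted p = 0.0551) and 0.85 (0.0923).

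Egf and Kcnj1 lay between in their pairs with Slc12a1 and Umod. With Ptger3 their r was lower, at 0.50 and 0.59 (exact permutation adjusted p = 0.281 and 0.207), and rho was 0.74 and 0.55 (adjusted p = 0.115 and 0.256). Egf had an r of 0.74 with Slc12a1 and 0.72 with Umod (exact permutation p = 0.0362 and 0.0425, adjusted p = 0.122 for each) and a rho of 0.79 and 0.83 (adjusted p = 0.0838 and 0.0577). Without the 2 libraries farthest from the median these r were 0.44 and 0.65. Kcnj1 had an r of 0.69 with Slc12a1 and 0.72 with Umod (exact permutation p = 0.0651 and 0.0513, adjusted p = 0.122 for each) and a rho of 0.62 and 0.67 (adjusted p = 0.192 and 0.156), with r of 0.71 and 0.65 without the farthest 2. Without KO replicate 1, the library highest for Egf, the pairs of Egf with Slc12a1 (0.83) and with Umod (0.83) passed the threshold (exact permutation adjusted p = 0.0381 for each). Bsnd had an r of 0.29 with Slc12a1, 0.31 with Umod, 0.41 with Ptger3 and 0.039 with Egf (exact permutation adjusted p = 0.533, 0.533, 0.393 and 0.934), and a rho of 0.14, 0.048, 0.12 and -0.12 (adjusted p = 0.850, 0.935, 0.850 and 0.850). Its highest r was 0.54, with Kcnj1 (exact permutation adjusted p = 0.249), where rho was 0.24 (adjusted p = 0.794). The KO libraries stood in 1 order for Bsnd, Slc12a1, Umod and Ptger3, from replicate 3 through 2 and 1 to 4. WT replicates 1 and 3, lowest for Slc12a1, ranked in places 3 and 2 of 8 for Bsnd. Without these 2 libraries, the farthest from the median of Slc12a1, the r of Bsnd and Slc12a1 was 0.94. The same rule left out other libraries for the other pairs of Bsnd, and r was lower than this 0.94. It was 0.55 with Umod (without WT replicates 2 and 3), above the 0.31 over all 8 libraries. With Kcnj1 (without KO replicates 1 and 3) r was 0.22, below the 0.54 over all 8. Without KO replicates 3 and 4 it was -0.076 with Egf and -0.31 with Ptger3. All 8 points share library depth and tissue composition with each other gene of the same kidney.

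**Figure D2:**
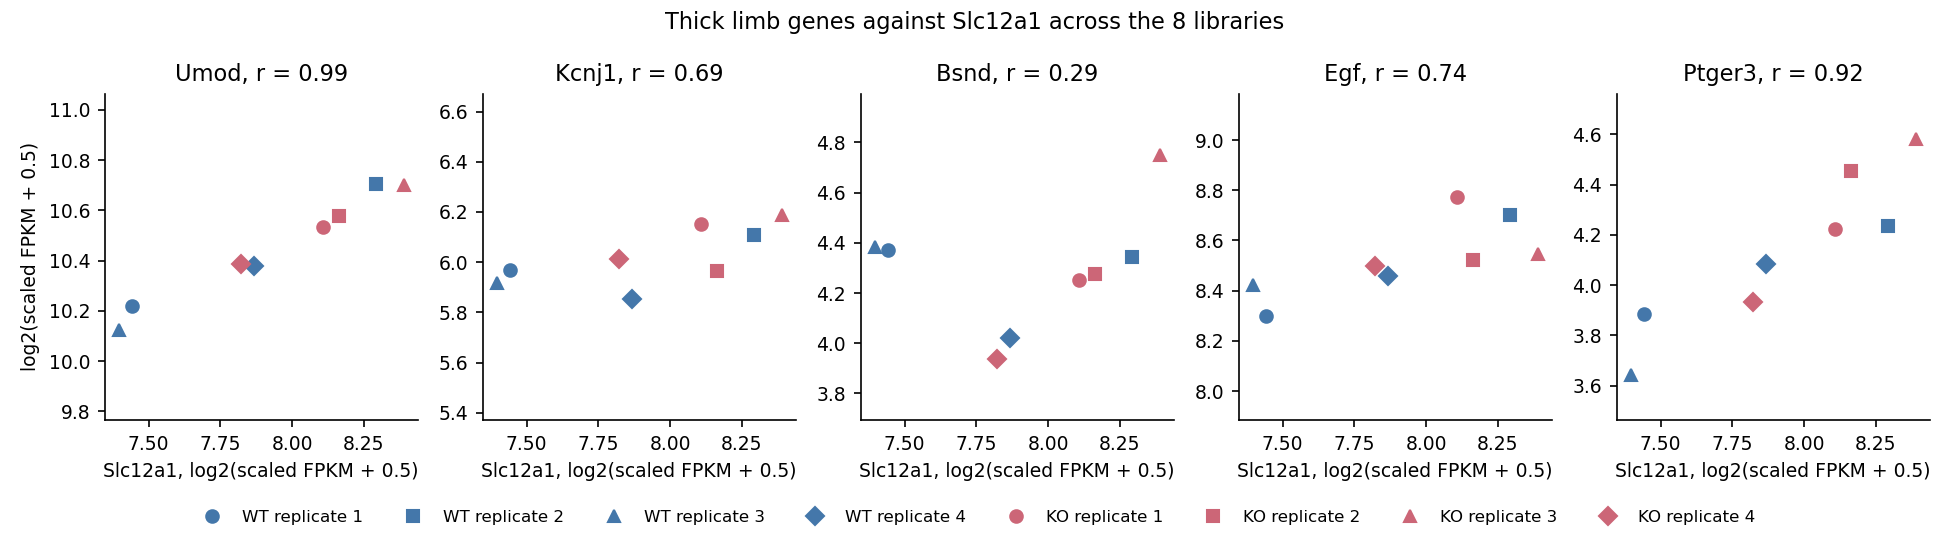
Level of Umod, Kcnj1, Bsnd, Egf and Ptger3 (vertical axes) against Slc12a1 (horizontal axes), each as log2(scaled FPKM + 0.5), in the 8 kidney libraries; blue is WT, red is KO, symbols mark replicates, and vertical axes cover the same log2 span. Umod and Ptger3 follow Slc12a1 (r of 0.99 and 0.92), whereas Bsnd does not (r of 0.29), with WT replicates 1 and 3 low for Slc12a1 and not for Bsnd.

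Among 8155 other genes whose mean was 5 scaled FPKM or more, the closest in pattern to Slc12a1 over the 8 libraries were Tmem72 (r = 0.98), a membrane protein gene listed here as a thick limb marker, and Pcsk6 (0.97), a proprotein convertase gene. The same pair came first for Umod, at 0.97 for Pcsk6 and 0.96 for Tmem72. Pcsk6 (0.97) was also closest to Ptger3. Kcnj1 was closest to Sdf4 and Yipf4 (0.94 and 0.93), Bsnd to Zfp212 and Nde1 (0.96 and 0.95), and Egf to Kng2, a kininogen gene, and Cars2 (0.96 and 0.93). These are the highest of 8155 values each, given as a description with no test. Pcsk6 measured 8.36 ± 2.95 and 11.7 ± 2.76 scaled FPKM (log2 fold change 0.50, SE 0.23, limma adjusted p = 0.338).

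A ratio inside a library does not change with the scaling between libraries, and 5 such ratios to Slc12a1 were compared. Umod stood at 687%, 534%, 664% and 572% of Slc12a1 in WT and at 539%, 534%, 498% and 593% in KO. The log2 ratio was 0.18 lower in KO, from 2.61 ± 0.173 in WT to 2.43 ± 0.104 in KO (SD, n = 4, exact permutation p = 0.171, adjusted p = 0.429). Ptger3 had the smallest difference between the genotypes, with shares of 8.24%, 5.87%, 7.14% and 7.07% in WT and 6.60%, 7.49%, 7.01% and 6.54% in KO, with log2 ratios of -3.83 ± 0.201 and -3.86 ± 0.0904 (exact permutation adjusted p = 0.857). Kcnj1 stood at 35.8%, 21.9%, 35.6% and 24.6% of Slc12a1 in WT and at 21.6% to 28.4% in KO. Bsnd stood at 11.6%, 6.34%, 12.1% and 6.75% in WT and at 6.56% to 7.90% in KO. The exact permutation adjusted p was 0.429 for Kcnj1, for Bsnd and for Egf, and the groups overlapped for all 5 ratios. WT replicates 1 and 3 gave the highest 2 values for Umod, Kcnj1, Bsnd and Egf relative to Slc12a1, and WT replicates 2 and 4 lay within or beside the KO range. Slc12a1, the denominator shared by all 5 ratios, was lowest in WT replicates 1 and 3 (173 and 168 scaled FPKM). The high ratios there are therefore not separate observations on each gene.

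**Figure D3:**
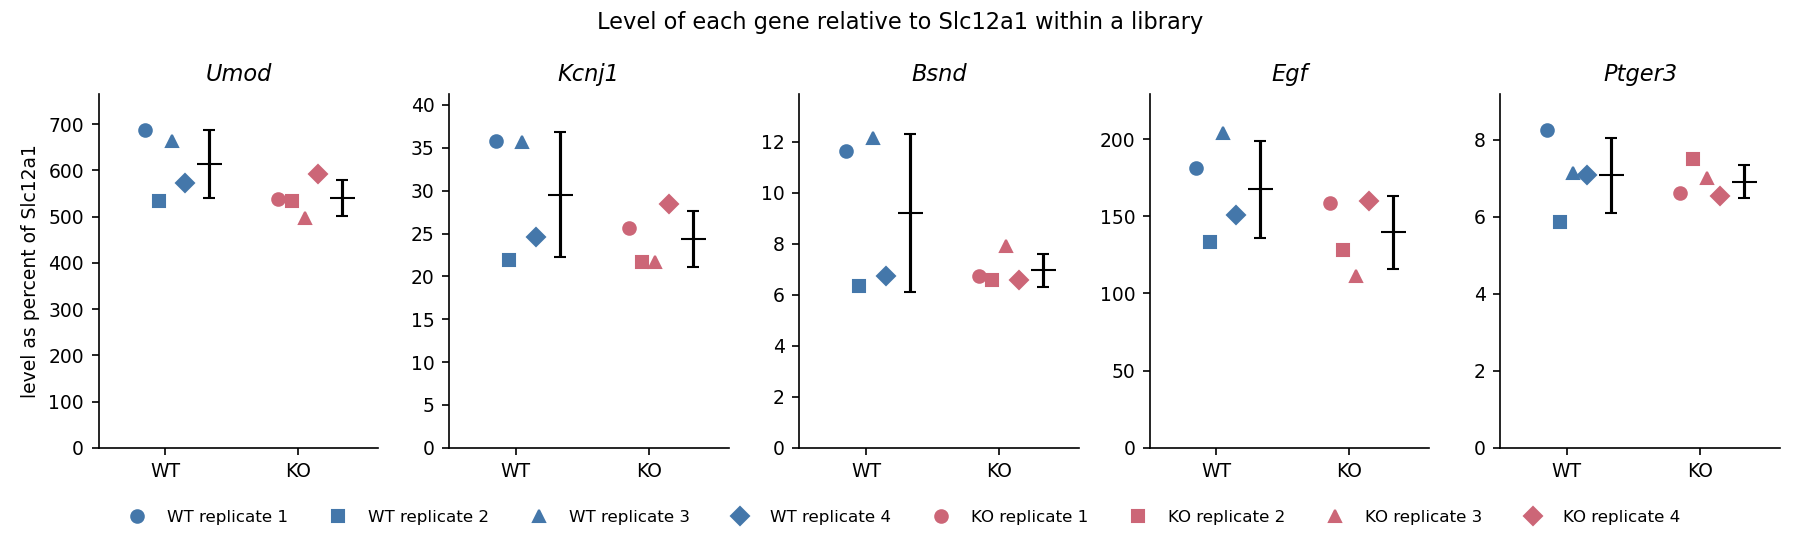
Level of Umod, Kcnj1, Bsnd, Egf and Ptger3 as a percent of Slc12a1 within each WT and KO library (vertical axes, linear, from 0, FPKM over FPKM); each point is a library, with symbols for replicates, and black bars give the mean ± SD (n = 4). WT replicates 1 and 3 lie above the other 6 libraries for Kcnj1 (35.8% and 35.6% against at most 28.4%) and for Bsnd (11.6% and 12.1% against at most 7.90%). Slc12a1, the shared denominator, was lowest in WT replicates 1 and 3.

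The genes that work beside the 6 showed no called member in any list. Of 10 tested salt transport partners, among them the sodium pump, 0 were called, 5 were above 0 and 5 below, and the median was -0.013. The sodium pump regulator gene Fxyd2 measured 3191 ± 328 and 2735 ± 152 (-0.22, SE 0.09, limma adjusted p = 0.280). Of 7 tested genes of the paracellular cation path and calcium sensing 0 were called, with a median of 0.06. There Cldn10, the claudin of sodium passage in the thick limb, stood at 67.9 ± 4.33 and 77.3 ± 6.48 (0.18, SE 0.07, limma adjusted p = 0.266), ahead of Cldn3 (-0.31, adjusted p = 0.285 by limma) and the junction scaffold gene Tjp1 (0.11, 0.422). Cldn14 was too low to be tested.

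Of 12 tested genes for kinases and trafficking of NKCC2 and ROMK 0 were called, with a median of 0.06. Wnk4, a kinase upstream of the cotransporters, measured 62.0 ± 3.14 and 54.9 ± 2.53 (-0.17, SE 0.05, limma adjusted p = 0.215). The ubiquitin ligase scaffold gene Cul3 (0.16, limma adjusted p = 0.269) and Cab39 (0.12, limma adjusted p = 0.317), which encodes an activator of the kinases SPAK and OSR1, followed. Wnk3 was too low to be tested. Of 4 genes linked to uromodulin processing 0 were called, with a median of 0.09. Hpn, the gene of the protease hepsin that releases uromodulin, stood at 274 ± 35.9 and 249 ± 14.8 (-0.13, SE 0.09, limma adjusted p = 0.531). The protease gene Prss8 was at -0.21 (limma adjusted p = 0.224), with 202 ± 17.1 and 173 ± 9.64 scaled FPKM.

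Of 13 transcription factor genes of the thick limb 0 were called, with a median of 0.02. The smallest p belonged to Esrrg (0.14, limma adjusted p = 0.337), Irx3 (-0.21, 0.369) and Sim2 (0.35, 0.504). Of 10 tested genes in a list of other thick limb markers 0 were called, 8 were above 0 and the median was 0.11. Cldn10, Cldn16 and Cldn19 of that list are also in the paracellular list, so the lists are not separate observations. Tmem207 measured 8.45 ± 2.36 and 12.3 ± 3.57 (0.51, SE 0.22, limma adjusted p = 0.306), Cldn10 is given above, and Tmem72 was at 0.17 (limma adjusted p = 0.504).

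Of the markers of other cells 0 were called in any list, and their medians follow as a description. In the thin limb list 5 of 6 genes were above 0, with a median of 0.35, and the summed level was 331 to 435 scaled FPKM for WT and 352 to 428 for KO. Most of that sum was Aqp1 (285 to 364 and 308 to 322), a water channel gene that is also in the proximal tubule list and was the only gene of the thin limb list below 0. The other 5 genes summed to 37.7 to 70.6 in WT and 43.3 to 109.6 in KO, with overlap. In the intercalated cell list 6 of 7 were below 0 (median -0.18), and the sums of 110 to 119 in WT and 91.4 to 105 in KO did not overlap. In the distal convoluted tubule list 5 of 6 were below 0 (median -0.16), and the sums of 443 to 488 and 384 to 483 overlapped. Wnk4 and Trpm6, given above, are also in the distal convoluted tubule list. Medians were -0.12 for 7 principal cell genes (sums of 326 to 389 and 277 to 674), -0.06 for 9 of the proximal tubule, -0.06 for 6 of podocytes, -0.04 for 6 of endothelium, 0.08 for 7 of leukocytes, -0.17 for 5 of fibroblasts and pericytes, and -0.36 for 7 of tubule injury. Several of these medians depended on a library. That of the intercalated cell list did so less, from -0.224 to -0.145 with a library left out. The tubule injury median was -0.020 without WT replicate 3, and the fibroblast and pericyte median was -0.047 without WT replicate 3 and -0.34 without KO replicate 2. The leukocyte median turned to -0.096 without WT replicate 4, the principal cell median was -0.040 without KO replicate 4, and the thin limb median was 0.22 without KO replicate 3. No gene in these lists was at 0 in all libraries. Mean log2 scores of WT and KO did not overlap for the intercalated cell list. The same held for the proximal tubule list (0.054 to 0.071 in WT, -0.117 to -0.010 in KO). The proximal tubule sums did overlap (5032 to 5503 and 4609 to 5067). The cause of these differences was not tested. The mean log2 score of the thin limb list was -0.56, 0.22, -0.17 and -0.21 in WT replicates 1 to 4 and 0.16, 0.080, 0.77 and -0.28 in KO replicates 1 to 4. KO replicate 3 and WT replicate 2, highest for Slc12a1, had the highest scores, and WT replicate 1, second lowest for Slc12a1, had the lowest. WT replicate 3, lowest for Slc12a1, stood above WT replicate 4 and KO replicate 4. The part of the thin limb in the values of Slc12a1, Umod and Ptger3 was not tested.

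**Figure D4:**
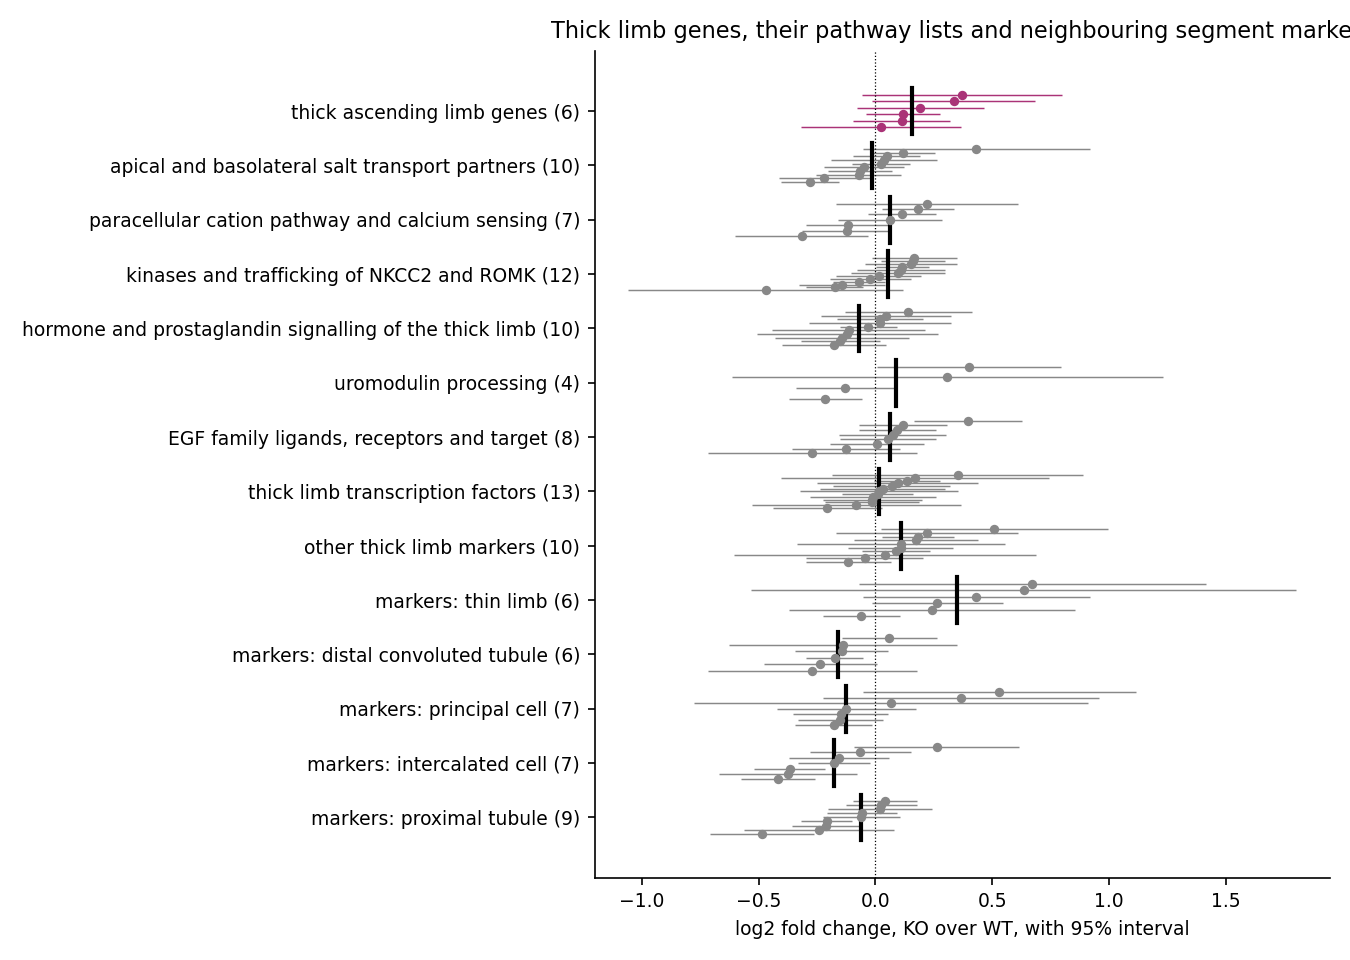
Log2 fold change between the genotypes, KO over WT, on the horizontal axis with its 95% limma interval for each tested gene of the thick ascending limb set, of its pathway lists and of 5 marker lists, with the number tested in brackets; black bars are list medians. The 6 thick limb genes (purple) lie between 0.024 and 0.37, and their intervals all include 0.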

How the data were processed

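Whole left kidneys of 4 WT and 4 KO mice were grouped by the labels' genotype field, and numbers within a group only name animals. The deposited table gave FPKM per gene for 8 libraries, per the file headers. CASAVA, STAR 2.5, HTSeq 0.6.1 and build mm10 are named without roles in the submitters' processing notes. The annotation release, counting options and strandedness were not given in the sources used here. Multiplied by gene length, the deposited FPKM gave whole multiples of 1 step per library for 100% of values (tolerance 0.01), so reads were recovered.

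Each library was divided by a median-ratio factor, and genes averaging 0.5 scaled FPKM or more were kept. The log2 of scaled FPKM plus 0.5 entered a linear model in limma 3.58.1 under R 4.3.3 (eBayes with trend, genotype as the only term, two-sided, Benjamini-Hochberg over all 14022 genes). Ratios and correlations used exact permutation tests in Python 3.11.15. Limma p-values set the genotype difference against the spread between these animals, moderated across genes. Permutation p-values come from reassigning libraries to genotypes for ratios and from re-pairing libraries for correlations. Intervals are at 95%. The fit was tested on simulated data.

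The 6 genes and the lists were chosen with earlier results of these data known. Genes named were the 6, C1qtnf1, every called gene and the 3 of smallest unadjusted p in each pathway list, and for each of the 6 the 2 genes most like it. Some genes this rule names, and a promoter pattern that was searched, are not reported here. Any other gene was picked with its values in view.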

Additional observations from a re-analysis of the deposited data

Results flagged for a closer look

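Within each genotype, a library was singled out when its gap to the nearest of the other 3 as a share of the range of its group passed the 95% critical value of Dixon's test. Of 70 groups of 4 libraries examined, 5 were singled out, and chance gives about 1 in 20. Bsnd was 15.7 scaled FPKM in WT replicate 4, against 19.8 to 20.4 in the other WT libraries. Egf was 436 in KO replicate 1, against 361 to 373 in the other KO libraries. The log2 ratio of Bsnd to Slc12a1 was -3.66 in KO replicate 3, against -3.93 to -3.89. Ptgs1 was 10.6 in WT replicate 3, against 8.34 to 8.39, and Irx3 was 23.9 in the same library, against 32.8 to 34.0 in the other WT libraries.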

How the results depend on the processing

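The 6 thick limb genes gave 0 calls under each of 20 alternatives (other pseudocounts, filters, scalings and limma settings, voom on the recovered reads, corrections for GC content and length, each library left out, and 2 left out together), and so did the pathway and marker lists. All genes gave 7 calls, 5 to 9 under the settings that kept 8 libraries or left out 2, and 5 to 16 with a library left out, the highest without WT replicate 3. C1qtnf1 stayed called, from -3.48 to -1.79. The log2 fold change of Bsnd turned to -0.09 without WT replicate 3 and KO replicate 3, and ran from -0.13 to 0.15 with a library left out. The other 5 genes kept their sign in all 20. With a library left out, Egf ran from 0.049 (without KO replicate 1) to 0.19 (without WT replicate 2), Kcnj1 from 0.081 to 0.17 and Ptger3 from 0.23 to 0.46, and Kcnj1 was 0.060 after GC and length correction. The ratio of Ptger3 to Slc12a1, -0.03, turned to 0.032 after GC and length trends were removed and ran from -0.11 to 0.051 with a library left out. For that setting the Umod ratio was -0.05, against -0.18. Pairs of genes past the threshold numbered 3, and 1 to 5 with a library left out. The r of Bsnd changed sign with a library left out for its pairs with Slc12a1 (-0.14 to 0.47), Umod (-0.062 to 0.53), Egf (-0.046 to 0.15) and Ptger3 (-0.053 to 0.67). With a library left out, the median of the uromodulin processing list ran from -0.083 to 0.20. The cause of these changes was not tested. No paired analysis was possible because the animals of the groups share no number in the labels. With 4 animals a group, the intervals of Slc12a1 and Ptger3 include rises of 1.74-fold and 1.61-fold.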
